A study of Mus musculus with 8 samples.

Results

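Primordial germ cells are the founders of sperm and eggs. In the mouse they are set aside from the posterior epiblast by BMP signals at gastrulation, and they then migrate through the hindgut and the allantois region towards the gonads. Prdm1 encodes the transcriptional repressor Blimp1 that starts this fate, and Prdm14 encodes a transcriptional regulator that acts with it on pluripotency genes and on the epigenome. Dppa3 encodes Stella, a nuclear protein long used to mark germ cells after their specification. Nanos3 and Dnd1 encode RNA-binding proteins that germ cells need to survive. Ifitm1 and Ifitm3 encode interferon-inducible membrane proteins, and Ifitm3, also called fragilis, marks the epiblast cells that can become germ cells. The TET enzymes oxidise 5-methylcytosine and so counter DNA methylation.

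These 7 genes were chosen by name and were described in every library and cell class. They are 7 of the 55422 features in the count tables. The data are single-cell RNA counts from chimaeric embryos made with embryonic stem cells lacking Tet1, Tet2 and Tet3 (Tet-TKO). Tet-TKO cells carried a tdTomato reporter and were of C57BL/6J-129Sv background, and they came from 1 stem cell line injected into C57BL/6J blastocysts. The unlabelled C57BL/6J cells of the chimaeras, sorted as tdTomato negative, were the WT host group, which had not passed through injection or culture as stem cells. Of the E8.5 libraries, 4 were Tet-TKO and 2 were WT host, and E7.5 had 1 library of each genotype. Each library held cells of pooled embryos, and no label ties a library to separate embryos, so p-values measure the spread between libraries, which may be technical. Genotype and strain background differed together in every comparison and cannot be told apart. Both fractions were sorted from pooled embryos and the study matched Tet-TKO samples with host samples, but no label says which libraries belong together. At E8.5 the Tet-TKO libraries held 7 ExE ectoderm-like and 21 yolk sac and visceral endoderm-like cells, against 205 and 771 WT host cells, whereas extraembryonic mesoderm-like cells numbered 899 against 180.

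After removal of poor-quality barcodes, 1012 to 9552 cells per library remained at E8.5, with 6.51e+07 to 1.37e+08 unique molecular identifiers (UMIs, counted molecules) per library. The Tet-TKO libraries 3 and 4 had the fewest cells (2304 and 1012) and the highest median depths, 40386.5 and 68704 UMIs per cell, against 12176 to 18763 in the other 4 E8.5 libraries. Library pairs shared between 0 and 28 cell barcodes. Levels are given as CPM, the UMIs of a gene per 1e+06 UMIs of the kept cells. At E8.5 the tdTomato transcript stood at 93.1, 97.8, 127 and 144 CPM in Tet-TKO and at 0.503 and 0.938 CPM in WT host libraries. The E7.5 libraries had 71.5 and 0.444 CPM. Tet1 stood at 9.93, 10.96, 20.1 and 20.9 CPM in the Tet-TKO libraries and at 22.5 and 20.4 in the WT host libraries, so that Tet-TKO library 4 lay between the host libraries. Mean Tet2 levels were 7.95 CPM in Tet-TKO and 4.65 CPM in WT host libraries, and mean Tet3 levels 29.96 and 23.2 CPM. Counts at the 3′ end do not test whether the altered part of each Tet gene is absent.

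The promoters of Ifitm1 and Ifitm3 are shown because these are close relatives that differed in where they were counted, as given further on. Each is the 300 bases from 250 before to 50 after the RefSeq start on GRCm38.p6, read 5′ to 3′ on the gene's strand, at chr7:140967826-140968125 for Ifitm1 (plus) and chr7:141010695-141010994 for Ifitm3 (minus). Capitals mark matches to the core of the interferon-stimulated response element, searched on both strands as GAAA, any 2 bases and GAAA again.
Ifitm1: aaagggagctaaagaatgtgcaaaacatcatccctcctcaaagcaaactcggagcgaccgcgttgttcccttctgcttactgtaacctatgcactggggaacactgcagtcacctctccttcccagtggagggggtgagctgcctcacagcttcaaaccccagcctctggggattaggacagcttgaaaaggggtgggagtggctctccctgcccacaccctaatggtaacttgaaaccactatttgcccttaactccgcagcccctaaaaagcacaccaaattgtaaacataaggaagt
Ifitm3: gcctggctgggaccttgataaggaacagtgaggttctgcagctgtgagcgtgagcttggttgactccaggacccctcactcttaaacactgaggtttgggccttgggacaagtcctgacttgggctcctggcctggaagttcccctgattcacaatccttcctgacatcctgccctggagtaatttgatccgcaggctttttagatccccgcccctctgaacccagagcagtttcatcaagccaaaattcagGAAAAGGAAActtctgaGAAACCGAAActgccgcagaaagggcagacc
The Ifitm3 window held 2 matches that do not overlap, and the Ifitm1 window held 0. Of 32851 RefSeq promoters of this length, 1131 (3.44%) held at least 1 match. Promoter windows were matched for 4 of the 7 genes. They held 5 CpG sites for Ifitm1, 5 for Ifitm3, 3 for Nanos3 and 20 for Prdm1, against a median of 7 (interquartile range 3 to 20) over all promoters. Dppa3, Dnd1 and Prdm14 were not matched. The windows of Ifitm1, Nanos3 and Prdm1 lie inside the gene spans given below, so the sequence upstream of these spans was not searched.

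The genes lie on 6 chromosomes of the mm10 genome. Prdm14 is on chromosome 1 (13113457 to 13127163, minus strand) and Prdm1 on chromosome 10 (44437177 to 44528501, minus strand). Dppa3 is on chromosome 6 (122626410 to 122630272, plus strand), Nanos3 on chromosome 8 (84173731 to 84185217, minus strand) and Dnd1 on chromosome 18 (36763671 to 36766214, minus strand). Ifitm1 (140967221 to 140969825, plus strand) and Ifitm3 (141009586 to 141010770, minus strand) are neighbours on chromosome 7.

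The first comparison asked how much of each transcript the Tet-TKO and WT host fractions of E8.5 embryos held. Dppa3, Nanos3 and Prdm14 had higher levels in all 4 Tet-TKO libraries than in both WT host libraries, while the ranges of Dnd1, Prdm1, Ifitm1 and Ifitm3 overlapped. None of the 7 genes passed the call threshold, an adjusted p of at most 0.01 with an absolute log2 fold change of at least 1 in edgeR's quasi-likelihood test over 21075 genes, and 2.65% of all tested genes passed it (0.588% higher and 2.06% lower in Tet-TKO). Of the 7 genes, 3 had an unadjusted p under 0.05, as did 26.7% of all tested genes. The calls changed when libraries 1 and 2 of each genotype were paired by number as a block, which leaves out Tet-TKO libraries 3 and 4. Dppa3 (log2 fold change 2.06, edgeR adjusted p = 0.00286), Prdm14 (2.29, edgeR adjusted p = 0.00674) and Ifitm1 (1.09, edgeR adjusted p = 6.69e-05) were then called, as were 8.71% of all genes. The 3 genes with separate ranges are to be read against a background of 41.0% of tested genes whose groups did not overlap in either direction, and 23.1% that were higher in all Tet-TKO libraries. In sums over whole libraries, fewer cells of a type and less RNA per cell cannot be told apart.

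**Figure D1:**
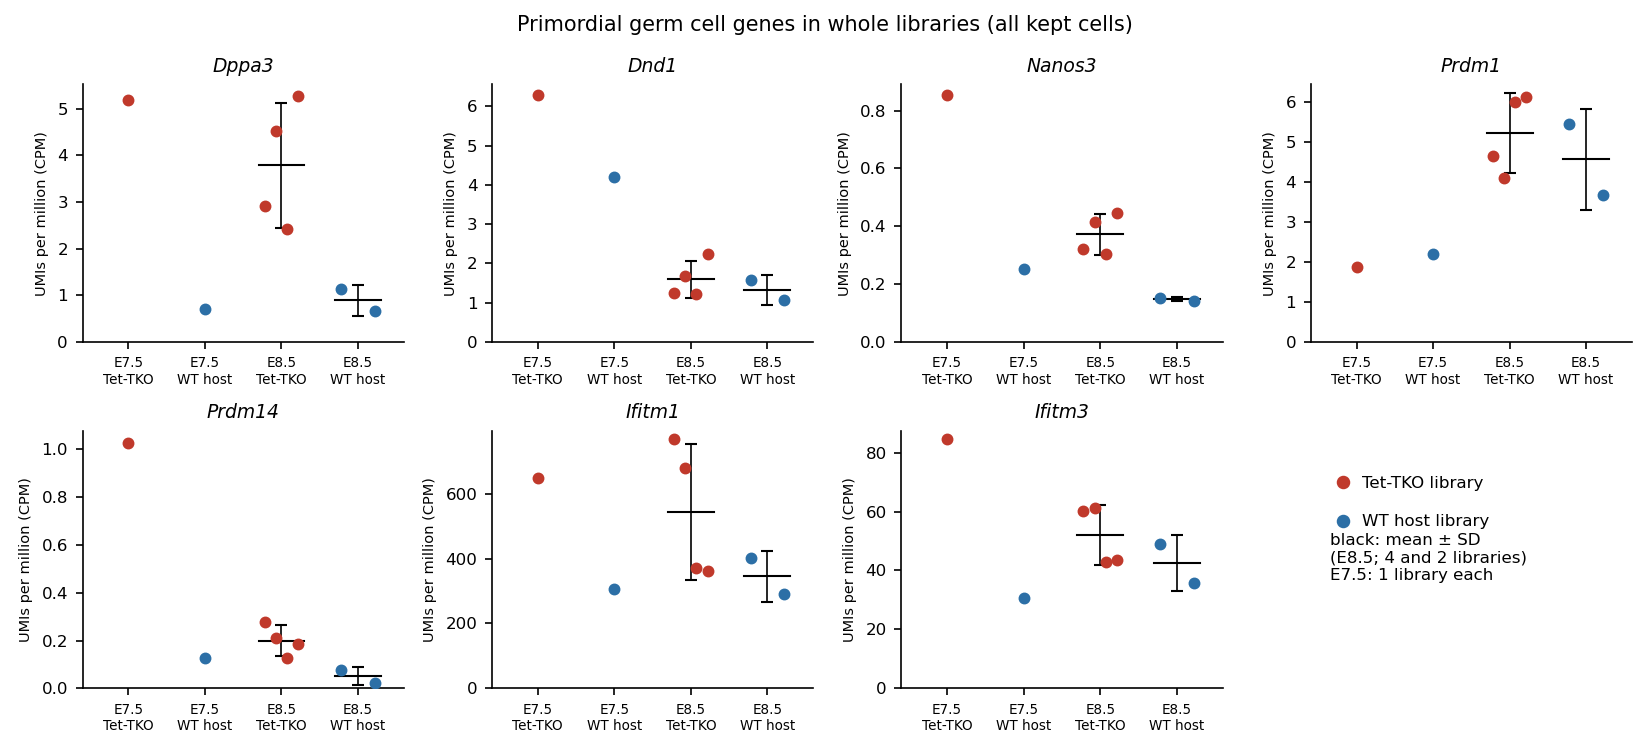
CPM of each of the 7 genes in each library (1 panel per gene, linear axis from 0), with Tet-TKO in red, WT host in blue and the E8.5 mean ± SD in black. Dppa3, Nanos3 and Prdm14 have separate groups at E8.5, with Dppa3 at 2.43 to 5.29 CPM in Tet-TKO and 0.655 to 1.13 in WT host libraries, whereas Prdm1 overlaps.

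Among the regulators of specification, Prdm14 was rare. Its level was 0.278, 0.211, 0.126 and 0.184 CPM in the Tet-TKO libraries (38, 26, 12 and 12 UMIs) and 0.0762 and 0.0237 CPM in the WT host libraries (10 and 3 UMIs). All Tet-TKO libraries were above both host libraries, but each value rests on few molecules. The means were 0.200 ± 0.0631 (SD, n = 4) and 0.0499 ± 0.0372 (SD, n = 2) CPM, a log2 fold change of 1.93 (SE 0.59) with an edgeR adjusted p of 0.0883. It was 2.95 without WT host library 1 (edgeR adjusted p = 0.166) and 1.35 without WT host library 2 (edgeR adjusted p = 0.396). Prdm1 stood at 4.66, 4.09, 6.01 and 6.12 CPM in Tet-TKO against 5.46 and 3.67 in WT host libraries, and the groups overlapped in part. Its log2 fold change was 0.10 (SE 0.20, edgeR adjusted p = 0.787).

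Of the genes expressed once the fate is set, Dppa3 differed most between the groups. It was counted at 2.92, 4.53, 2.43 and 5.29 CPM in the Tet-TKO libraries and at 1.13 and 0.655 CPM in the WT host libraries. Every Tet-TKO library was above both host libraries. The means were 3.79 ± 1.34 (SD, n = 4) and 0.891 ± 0.335 (SD, n = 2) CPM, and the log2 fold change was 2.01 (SE 0.41, edgeR adjusted p = 0.0273). The call depended on the test, because the adjusted p was 7.67e-06 with DESeq2, which called 6.86% of all genes, and 0.00919 with edgeR without a filter on low counts, which called 2.63%. Dppa3 was the only one of the 7 genes called under either. Nanos3 stood at 0.322, 0.415, 0.304 and 0.446 CPM against 0.152 and 0.142 CPM, with no overlap and a log2 fold change of 1.24 (SE 0.30, edgeR adjusted p = 0.0452). Dnd1 was at 1.25, 1.68, 1.23 and 2.23 CPM in Tet-TKO and at 1.59 and 1.06 CPM in WT host libraries. Its groups overlapped, with a log2 fold change of 0.18 (SE 0.30, edgeR adjusted p = 0.728), which turned to -0.07 without WT host library 2.

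The membrane protein genes were abundant and overlapped between the groups. Ifitm1 stood at 769, 679, 371 and 361 CPM in Tet-TKO and at 401 and 290 CPM in WT host libraries. Ifitm3 stood at 60.3, 61.3, 42.8 and 43.4 CPM against 49.1 and 35.7 CPM. For both genes, Tet-TKO libraries 1 and 2 were high and libraries 3 and 4 lay within the host range. The log2 fold change was 0.61 (SE 0.41, edgeR adjusted p = 0.388) for Ifitm1 and 0.23 (SE 0.26, edgeR adjusted p = 0.602) for Ifitm3. Over the 7 genes, the median log2 fold change was 0.61, with all 7 above 0, beside a median of 0.02 over all tested genes.

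At E7.5, with 1 library per genotype and no test, 6 of the 7 genes were at a higher level in the Tet-TKO library. The share of all genes that were higher in this library was not computed, so the count is a description only. Intervals here and below are 95% exact intervals that cover counting error only. Prdm14 was at 1.03 CPM (0.841 to 1.24) against 0.126 (0.0669 to 0.215), a ratio of 8.17. Dppa3 was at 5.19 CPM (4.76 to 5.64) against 0.715 (0.561 to 0.897), a ratio of 7.26. Nanos3 was at 0.855 CPM (0.687 to 1.05) against 0.251 (0.164 to 0.368), a ratio of 3.40. These 3 genes also had separate groups at E8.5. The ratios were 2.75 for Ifitm3 (84.6 against 30.8 CPM), 2.11 for Ifitm1 (650 against 307 CPM) and 1.50 for Dnd1 (6.29 against 4.19 CPM). Prdm1 was at 1.87 CPM (1.62 to 2.15) against 2.20 (1.93 to 2.51), and its intervals overlapped.

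The next comparison asked how many cells carried the germ cell transcripts. A cell was called germ cell-like if, after thinning to 5000 UMIs, it held UMIs of at least 2 of Dppa3, Dnd1, Nanos3 and Prdm14. At E8.5 such cells made up 0.266% (18 of 6761), 0.410% (37 of 9035), 0.359% (8 of 2228) and 0.651% (6 of 921) of the Tet-TKO libraries. They made up 0.0779% (6 of 7707) and 0.0241% (2 of 8314) of the WT host libraries. Every Tet-TKO share was above both host shares. The mean shares were 0.422 ± 0.164% (SD, n = 4) and 0.0510 ± 0.0380% (SD, n = 2), a ratio of 8.27. The exact permutation test over libraries gave a two-sided p of 0.133, the smallest that 15 splits of 4 against 2 allow. The ratio depended on the host libraries, being 17.5 without WT host library 1 and 5.42 without WT host library 2. Without thinning, the shares were 0.454, 0.555, 0.825 and 0.988% against 0.121 and 0.0775%. At E7.5 the share was 0.754% (36 of 4775, 0.529 to 1.04%) in Tet-TKO and 0.105% (7 of 6662, 0.0423 to 0.216%) in WT host cells.

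**Figure D2:**
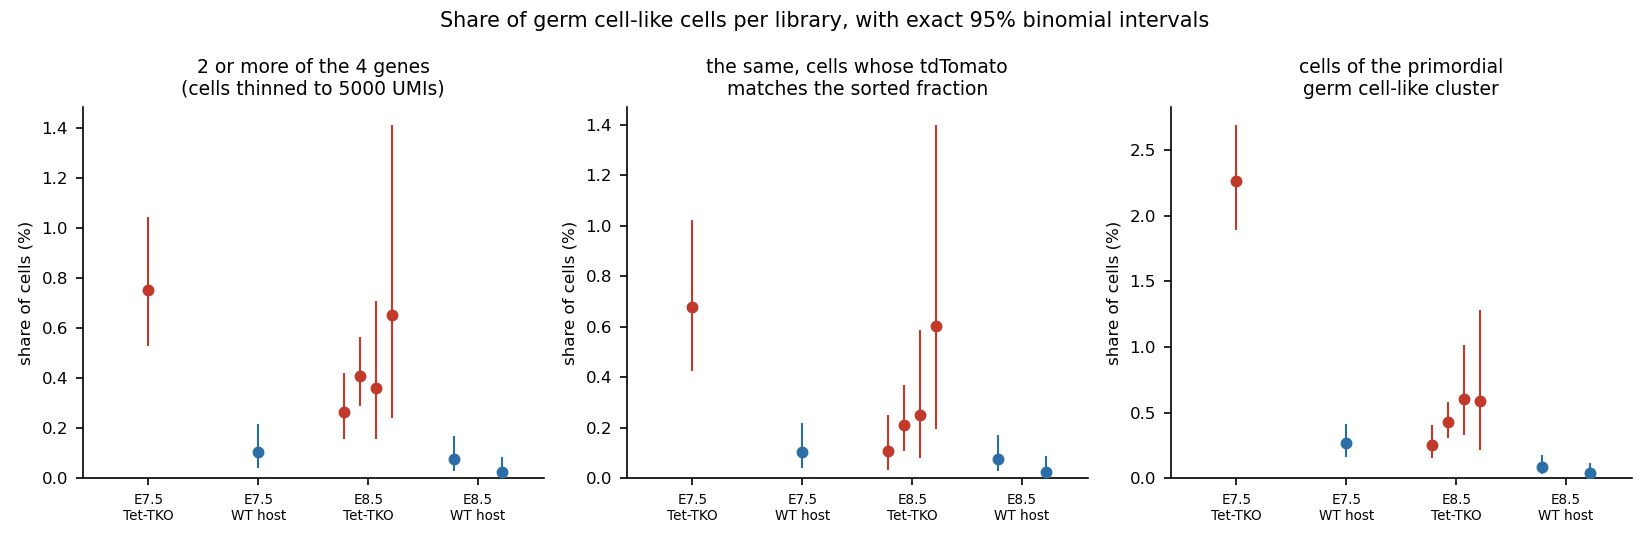
Share of germ cell-like cells (percent of cells, thinned to 5000 UMIs) in each library at E7.5 and E8.5, with exact 95% binomial intervals as bars. The 4 Tet-TKO libraries at E8.5 lie between 0.266 and 0.651%, above the 2 WT host libraries at 0.0779 and 0.0241%.

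At E7.5 a grouping of all cells, without these 7 genes among the clustering genes, gave a cluster named primordial germ cell-like. At E8.5 the cluster of this name joins sub-clusters of a larger cluster. The larger cluster was split because it held the most cells with UMIs of at least 2 of Dppa3, Dnd1, Nanos3 and Prdm14. The split also left the 7 genes out, but cell numbers, UMI shares and levels of the E8.5 cluster are not independent of these genes. The name used Dppa3, Dnd1, Nanos3, Prdm14, Prdm1, Ifitm3 and Kit as markers, so that high levels of these in the cluster are a matter of naming and are given as description. At E8.5 it held 18, 41, 14 and 6 cells of the Tet-TKO libraries and 7 and 4 of the WT host libraries, and at E7.5 it held 125 Tet-TKO and 19 WT host cells. In edgeR's test of cell numbers over all 46 classes, its log2 fold change was 2.78 (SE 0.64, adjusted p = 0.0207). At the threshold of 0.05 used for cell numbers, 26.1% of the classes passed. With edgeR this call was lost without Tet-TKO library 3 (adjusted p = 0.0642), without WT host library 1 (adjusted p = 0.0800) and without WT host library 2 (adjusted p = 0.161). Of the germ cell-like cells at E8.5, 51 of the 69 in Tet-TKO libraries lay in this cluster, and so did 6 of the 8 in WT host libraries. A further 9 Tet-TKO and 2 WT host cells lay in an unnamed cluster 28, led by Sprr2a3, Mixl1, Mesp1 and T. In the E7.5 cluster, 24 of the 125 Tet-TKO and 4 of the 19 WT host cells were germ cell-like. Most cells of that cluster thus did not meet the germ cell-like rule.

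Sorting was by tdTomato, and the germ cells of the Tet-TKO libraries held less of that transcript than other cells. In the E8.5 primordial germ cell-like cluster, 31 of 79 Tet-TKO cells (39.2%) had a tdTomato UMI, against 67.3% of all Tet-TKO cells, and its level was 46.2 against 110 CPM. The share per library was 33.3, 26.8, 64.3 and 83.3%, against 67.2, 60.8, 87.2 and 83.4% of all cells of these libraries. In Tet-TKO library 4 the shares were thus alike, while the level was 46.0 CPM in its 6 cluster cells against 144 CPM. None of the 11 WT host cells had one. At E7.5, 62 of 125 Tet-TKO cells of the cluster (49.6%) and 2 of 19 WT host cells (10.5%) had one, the latter with 5 UMIs, or 18.2 CPM against 0.444 CPM in the whole host library. When cells were kept only where tdTomato matched the sorted fraction, the groups of the germ cell-like share still did not overlap (0.107 to 0.602% against 0.0242 and 0.0783%), and the ratio of the mean shares was 5.72 in place of 8.27. In whole-library sums of these cells, the log2 fold change was 1.35 in place of 2.01 for Dppa3 (edgeR adjusted p = 0.0877), 1.46 in place of 1.93 for Prdm14 (edgeR adjusted p = 0.206) and 0.99 in place of 1.24 for Nanos3 (edgeR adjusted p = 0.103). Dnd1 was at -0.085 in place of 0.18 (edgeR adjusted p = 0.890).

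Erythroid-like cells served as a class that should lack the 4 genes used to call germ cell-like cells. None of 2598 WT host erythroid-like cells at E8.5 was germ cell-like, which allows a share of up to 0.115%. This limit lies above both WT host shares of germ cell-like cells, and that of the 36 Tet-TKO erythroid-like cells, 8.33%, lies above all Tet-TKO shares, so the background of the shares is not bounded below them. After thinning, 0% of them had a Dppa3 UMI and 0.231% a Dnd1 UMI, while 9.39% had an Ifitm1 and 2.42% an Ifitm3 UMI. In the 36 Tet-TKO erythroid-like cells at E8.5 these were 36.1% and 11.1%, with 0% for Dppa3 and Dnd1, and in the 342 WT host erythroid-like cells at E7.5 they were 27.5% and 35.96%. In the Tet-TKO primordial germ cell-like cells, 90.5% had a Dppa3, 64.9% a Dnd1, 13.5% a Nanos3, 22.97% a Prdm1 and 9.46% a Prdm14 UMI at the same depth. These 5 shares were above those of the erythroid-like cells of both genotypes, whose median depth was 17130 UMIs in WT host and 27016 in Tet-TKO cells against 13105.5 in the Tet-TKO germ cells. The 5 genes were among the markers that named the cluster, and 4 of them chose the cluster to split. Their higher shares in it are thus built in and are no check of the background. With full depth, 54 of 79 Tet-TKO cells (68.4%) and 8 of 11 WT host cells (72.7%) of the E8.5 cluster held at least 5 of the 7 transcripts, with a median of 5 in both groups. At E7.5 it was 40 of 125 (32%) and 6 of 19 (31.6%), with a median of 4.

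The germ cells accounted for different parts of each gene's counts. In E8.5 Tet-TKO libraries the primordial germ cell-like cluster, 0.397% of the cells, held 69.1% of all Dppa3 UMIs, 46.1% of Dnd1, 41.2% of Nanos3 and 40.9% of Prdm14. It held 4.55% of Prdm1, 8.04% of Ifitm3 and 1.21% of Ifitm1 UMIs. In WT host libraries, with 0.0636% of cells in the cluster, it held 75.8% of Dppa3 but 8.19% of Dnd1 and 0.930% of Prdm1 UMIs. It held 21.1% of Nanos3 (8 of 38 UMIs), 15.4% of Prdm14 (2 of 13 UMIs), 2.70% of Ifitm3 and 0.403% of Ifitm1 UMIs there. Most Dppa3 molecules were thus in these cells in both groups at E8.5, while Prdm1 and both Ifitm genes were counted mainly elsewhere. At E7.5 the cluster held 47.4% of Dppa3 UMIs in the Tet-TKO library and 29.7% in the WT host library. With germ cell-like cells left out of the whole-library sums, the log2 fold change of Dppa3 was 1.63 (edgeR adjusted p = 0.0828) and that of Dnd1 was -0.74 (edgeR adjusted p = 0.0779). It was 1.87 for Prdm14 (edgeR adjusted p = 0.160) and 0.81 for Nanos3 (edgeR adjusted p = 0.151). The cells left out were chosen by UMIs of Dppa3, Dnd1, Nanos3 and Prdm14, so part of the change in these genes is built in. They included 51 of the 79 Tet-TKO and 6 of the 11 WT host cells of the cluster. The rest of the cluster stayed in these sums, which thus do not give levels outside it. Outside the cluster at E8.5, with libraries summed, Dnd1 was at 0.824 CPM in Tet-TKO and 1.22 CPM in WT host cells. The other genes were higher in Tet-TKO there. Dppa3 was at 1.13 against 0.217 CPM, Nanos3 at 0.215 against 0.116 CPM and Prdm14 at 0.124 against 0.0427 CPM. Prdm1 was at 4.81 against 4.54 CPM, Ifitm1 at 584 against 345 CPM and Ifitm3 at 49.8 against 41.4 CPM. These levels were not tested.

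The levels inside the primordial germ cell-like cluster were then compared. None of the 6 genes tested passed the threshold there with edgeR or DESeq2, and Dppa3 and Ifitm3 had an unadjusted p under 0.05 with edgeR, as did 9.07% of 4762 tested genes, of which 0.21% passed the threshold. Prdm14 was too sparse to be tested. This fit used libraries with at least 4 cells, a minimum chosen after the cell numbers were seen, and the WT host side rests on 11 cells. The call for germ cell-like cells as planned, with at least 10 cells per library, could not be made because the WT host libraries held 6 and 2.

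In the cluster, Dppa3 had lower levels in all 4 Tet-TKO libraries than in both WT host libraries. It was at 834, 802, 467 and 730 CPM in Tet-TKO and at 1204 and 1204 CPM in WT host cells. The log2 fold change was -0.68 (SE 0.23) with an edgeR adjusted p of 0.322. This difference was not called, and its sign is opposite to that in the whole libraries. Ifitm3 was at 1360, 1626, 976 and 898 CPM in Tet-TKO against 1900 and 2341 CPM, again with no overlap (log2 fold change -0.70, SE 0.21, edgeR adjusted p = 0.252). The share of all tested genes with separate groups was not computed for this cluster, so the separation of Dppa3 and Ifitm3 has no background beside it. Ifitm1 was at 1831, 2382, 1760 and 1821 CPM against 2368 and 2720 CPM. Tet-TKO library 2 lay above WT host library 1, and the log2 fold change was -0.29 (SE 0.16, edgeR adjusted p = 0.647).

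The other genes overlapped in the cluster. Dnd1 was at 194, 208, 149 and 223 CPM in Tet-TKO and 179 and 223 CPM in WT host cells. Prdm1 was at 71.6, 53.7, 70.6 and 62.2 CPM against 59.7 and 111 CPM. Nanos3 was at 29.5, 58.2, 30.3 and 41.4 CPM against 29.8 and 111 CPM. For Nanos3 and Prdm1 the high value of WT host library 2 rests on 5 UMIs in 4 cells. Prdm14 was at 42.1, 26.9, 12.6 and 20.7 CPM in Tet-TKO and at 19.9 CPM in WT host library 1, and WT host library 2 held 0 UMIs, which allows up to 82.2 CPM by its exact interval. At E7.5 the cluster held 114 CPM of Dppa3 in Tet-TKO (101 to 129) and 80.1 in WT host cells (50.2 to 121), and the intervals overlapped. The E7.5 level of Dnd1 was 132 against 120 CPM, of Prdm1 29.2 against 40.0 CPM, of Ifitm1 2082 against 1576 CPM and of Ifitm3 703 against 939 CPM. Nanos3 was at 17.7 against 25.5 CPM (40 and 7 UMIs) and Prdm14 at 19.0 against 25.5 CPM (43 and 7 UMIs), with overlapping intervals.

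**Figure D3:**
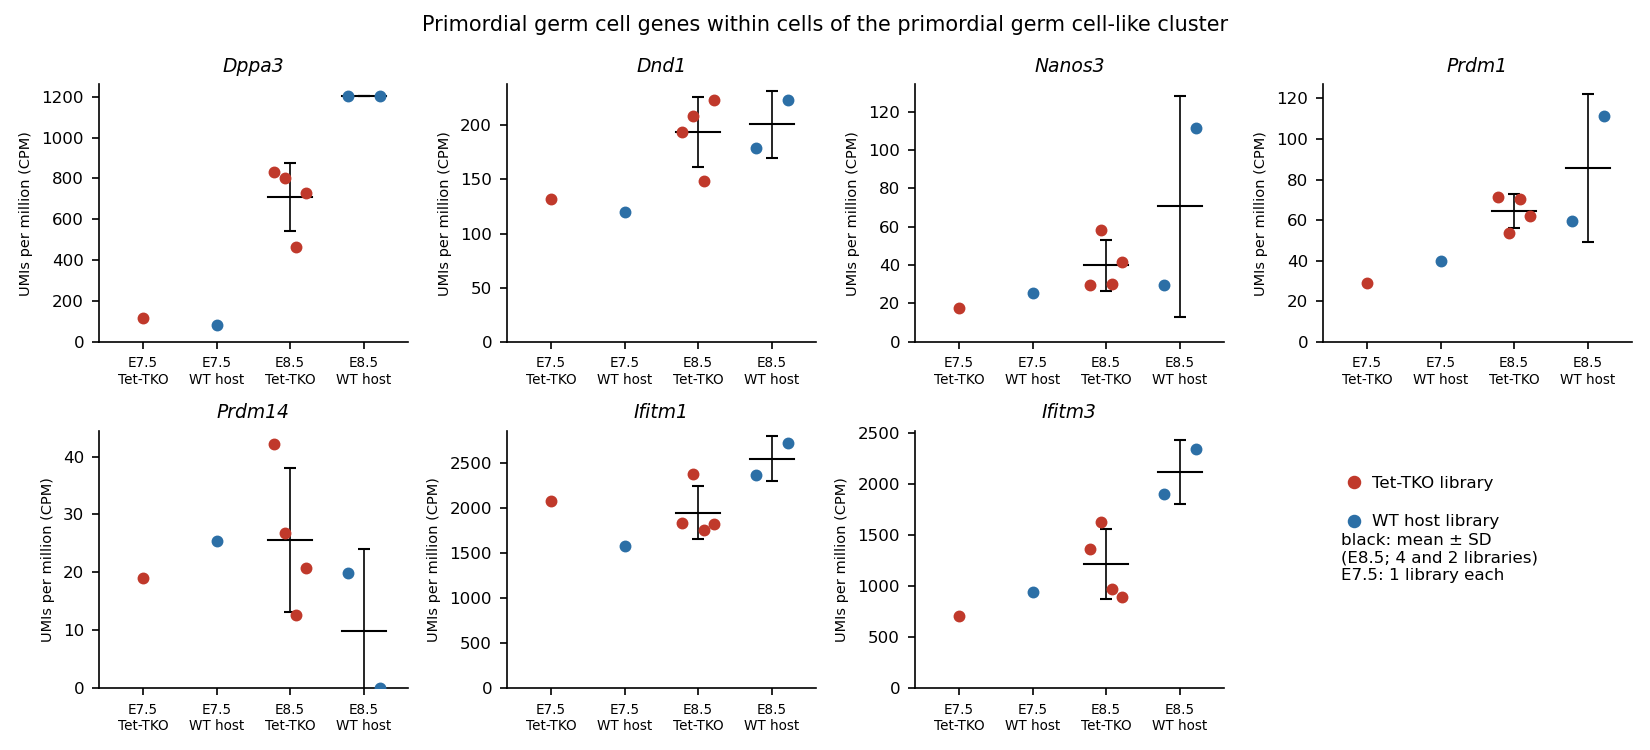
CPM of the 7 genes in the summed cells of the primordial germ cell-like cluster in each library (1 panel per gene), with the E8.5 mean ± SD in black. Dppa3 lies at 467 to 834 CPM in the 4 Tet-TKO libraries and at 1204 CPM in both WT host libraries at E8.5.

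Outside the primordial germ cell-like cluster, the 7 genes had distinct patterns over the cell classes. Dppa3, Dnd1 and Prdm14 were next highest in the unnamed cluster 28 in the WT host cells, on 4, 15 and 5 UMIs, and so was Ifitm3, at 199 CPM on 192 UMIs. Nanos3 was next highest in WT host notochord-like cells, at 1.61 CPM on 1 UMI. Cluster 28 includes the 9 Tet-TKO and 2 WT host germ cell-like cells given above, and its levels without them were not computed. Prdm1 was next highest in the unnamed cluster 33, led by Tbx1, Igfbpl1, Lefty2 and Six2, and was also present in pharyngeal mesoderm-like, gut endoderm-like and surface ectoderm-like cells, while Ifitm1 was present in every class, at its highest in WT host cells of cluster 44, led by Ripply2 and Mesp2. Of 88 pairs of gene and class with enough counts, none was called by edgeR or by DESeq2, 12 had an unadjusted edgeR p under 0.05 (as did 36746 of all 334647 pairs tested, or 11%), and 0.565% of all pairs of gene and class tested were called (0.243% higher and 0.322% lower in Tet-TKO). With libraries 1 and 2 paired by number, 3 of 85 pairs of gene and class were called, beside 2.21% of all pairs. The share of all genes whose groups did not overlap was not computed within classes, so separate groups in a class, as given below, have no background beside them.

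**Figure D4:**
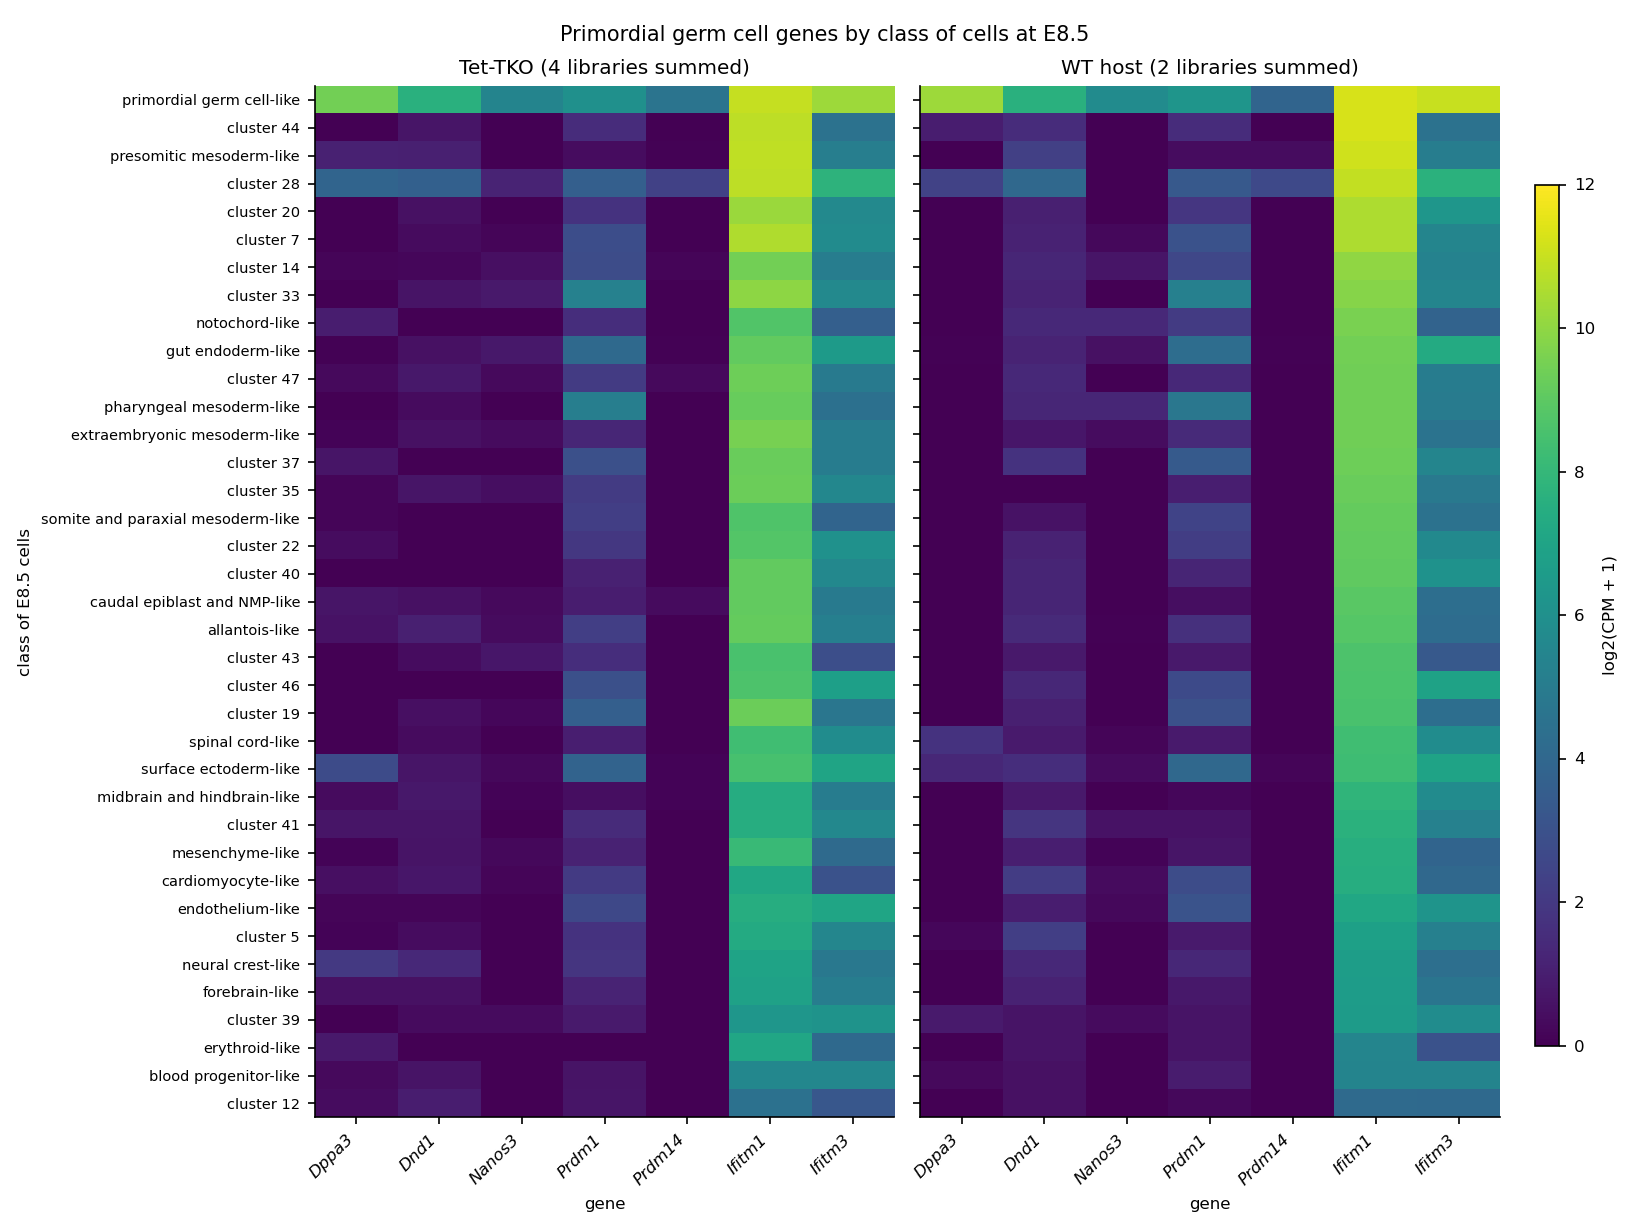
Level of each of the 7 genes (columns) in each E8.5 class (rows), shown as log2(CPM + 1) in the summed cells of each genotype, with lighter colours for higher levels, for the primordial germ cell-like class and the 36 classes with at least 50 cells of each genotype. The top row is the lightest for every gene in Tet-TKO and WT host cells, and Ifitm1 is present at 16.8 CPM or more in all 36 classes.

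Dppa3 was counted in more classes of Tet-TKO than of WT host cells. Of 36 classes with at least 50 cells of each genotype, 27 held 0 Dppa3 UMIs in WT host and 11 held 0 in Tet-TKO cells. The sums cover 4 Tet-TKO and 2 WT host libraries, so zeros were not compared at equal depth. In cluster 35, for example, 1 UMI in Tet-TKO cells (0.118 CPM) stands against 0 in WT host cells, which allows up to 1.92 CPM. For Dnd1, 1 class held 0 UMIs in WT host and 7 held 0 in Tet-TKO cells. In surface ectoderm-like cells Dppa3 was at 8.43, 5.93, 3.85 and 1.46 CPM in Tet-TKO and 2.02 and 0.973 CPM in WT host libraries. Tet-TKO library 4 lay between the host libraries, so the groups overlapped, and the log2 fold change was 1.78 (SE 0.68, edgeR adjusted p = 0.350). This rested on 173 UMIs in 1512 cells against 24 UMIs in 1103 cells. The class joins several clusters, and in cluster 17, whose leading genes include Dlx5 and Dlx6, Dppa3 was at 9.40, 5.01, 2.79 and 1.10 CPM against 1.09 and 0.643 CPM (log2 fold change 2.52, edgeR adjusted p = 0.389). In cluster 30, led by Bhlha9, Sfn and Upk1a, it was at 11.6, 14.7, 9.02 and 1.53 CPM against 5.58 and 2.53 CPM (log2 fold change 1.23, edgeR adjusted p = 0.629). The groups overlapped in cluster 30, and in cluster 17 they were separate by 1.10 against 1.09 CPM, where the value of Tet-TKO library 4 rests on 1 UMI in 10 cells. In cluster 23, whose leading genes include Tac2 and Wnt4, Dppa3 was at 7.91, 2.23, 5.06 and 0 CPM against 1.69 and 0.875 CPM, and the groups overlapped. In cluster 36, whose leading genes include Batf3 and Pax8, Dppa3 was at 3.29, 2.40, 0.521 and 1.99 CPM against 0.477 and 0 CPM. The groups were separate there, on 5, 3, 1 and 4 UMIs against 1 and 0, too few to be tested. The low value of Tet-TKO library 4 in cluster 30 rests on 2 UMIs in 18 cells. At E7.5 the surface ectoderm-like class held 67.1 CPM (52.7 to 84.2, 74 UMIs) in 47 Tet-TKO cells and 10.8 CPM (5.201 to 19.9, 10 UMIs) in 70 WT host cells. The intervals did not overlap, but Dppa3 was among the genes that led this cluster. In cluster 28 at E8.5, Dppa3 was at 9.52, 19.7, 21.6 and 15.6 CPM against 3.96 and 4.80 CPM, a log2 fold change of 1.91 (edgeR adjusted p = 1.00). Tet-TKO library 4 held 5 cells of this cluster and was not in the fit, and the WT host values rest on 4 UMIs in 73 cells. Some values came from very few cells, as in the spinal cord-like class, where 2 WT host cells held all 18 Dppa3 UMIs. In the ExE ectoderm-like class, 7 Tet-TKO cells, of which 3 were germ cell-like, held 38 Dppa3 UMIs and 205 WT host cells held 2.

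Dnd1 had a log2 fold change below 0 in all 4 classes where it was tested, and none was called. In cluster 5, led by Vgll3, Egr2 and Olig3, it was at 0.356, 0.475, 0.350 and 0 CPM in Tet-TKO and 3.72 and 3.66 CPM in WT host libraries. The groups did not overlap, and the log2 fold change was -3.29 (SE 0.64, edgeR adjusted p = 0.0597), on 4 UMIs in Tet-TKO and 22 in WT host cells. Without a filter on low counts the edgeR adjusted p was 0.00259. In surface ectoderm-like cells Dnd1 was at 0.749, 1.07, 0.148 and 0.209 CPM against 2.14 and 1.67 CPM (log2 fold change -1.62, edgeR adjusted p = 0.344). Nanos3 and Prdm14 had too few counts to be tested in any class. Outside the primordial germ cell-like cluster Prdm14 was highest in cluster 28, germ cell-like cells included, at 3.37, 4.69, 4.81 and 6.25 CPM in Tet-TKO and 5.29 and 4.80 CPM in WT host libraries, which overlapped and rest on 33 and 5 UMIs.

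Prdm1 was tested in 12 classes, with 6 higher and 6 lower, and none had an unadjusted p under 0.05. In cluster 33 it was at 34.5, 34.6, 41.6 and 44.4 CPM in Tet-TKO and 43.4 and 30.7 CPM in WT host libraries. In pharyngeal mesoderm-like cells it was at 26.5, 26.4, 46.4 and 45.8 CPM against 28.6 and 23.1 CPM. In gut endoderm-like cells it was at 14.5, 8.47, 26.1 and 12.02 CPM against 18.2 and 18.9 CPM. All 3 classes overlapped between the groups. At E7.5 Prdm1 was at 15.1 CPM in Tet-TKO and 14.4 CPM in WT host gut endoderm-like cells.

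Ifitm1 was tested in 37 classes, with 19 higher and 18 lower in Tet-TKO and a median log2 fold change of 0.02. In presomitic mesoderm-like cells it was at 2201, 2213, 1286 and 1307 CPM in Tet-TKO and 2300 and 2139 CPM in WT host libraries. Tet-TKO libraries 3 and 4 were low and libraries 1 and 2 were near the host values. In allantois-like cells it was at 687, 583, 394 and 347 CPM against 465 and 445 CPM. Here libraries 1 and 2 were above and libraries 3 and 4 below both host libraries. In the 25 classes with at least 10 cells in every Tet-TKO library, libraries 3 and 4 both lay below libraries 1 and 2 in 24 classes for Ifitm1, with a median ratio of 0.453, and in 19 for Ifitm3, with a median ratio of 0.664. In whole-library sums, 23.8% of all tested genes lay below in both libraries and 53.3% above. The part of the greater depth per cell of libraries 3 and 4 in this was not tested.

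Ifitm3 was tested in 33 classes, with 22 higher and 11 lower and a median log2 fold change of 0.18. In endothelium-like cells it was at 130, 142, 117 and 101 CPM in Tet-TKO and 79.8 and 63.1 CPM in WT host libraries, so the groups did not overlap. The log2 fold change was 0.82 (SE 0.19, edgeR adjusted p = 0.0471), below the threshold on fold change and above that on p. In gut endoderm-like cells it was at 112, 117, 58.8 and 47.4 CPM against 171 and 136 CPM, with all 4 Tet-TKO libraries below both host libraries (log2 fold change -0.77, edgeR adjusted p = 0.383). In allantois-like cells it was at 39.6, 37.0, 25.96 and 18.05 CPM against 18.13 and 16.8 CPM. The groups overlapped there, since Tet-TKO library 4 was just below WT host library 1.

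**Figure D5:**
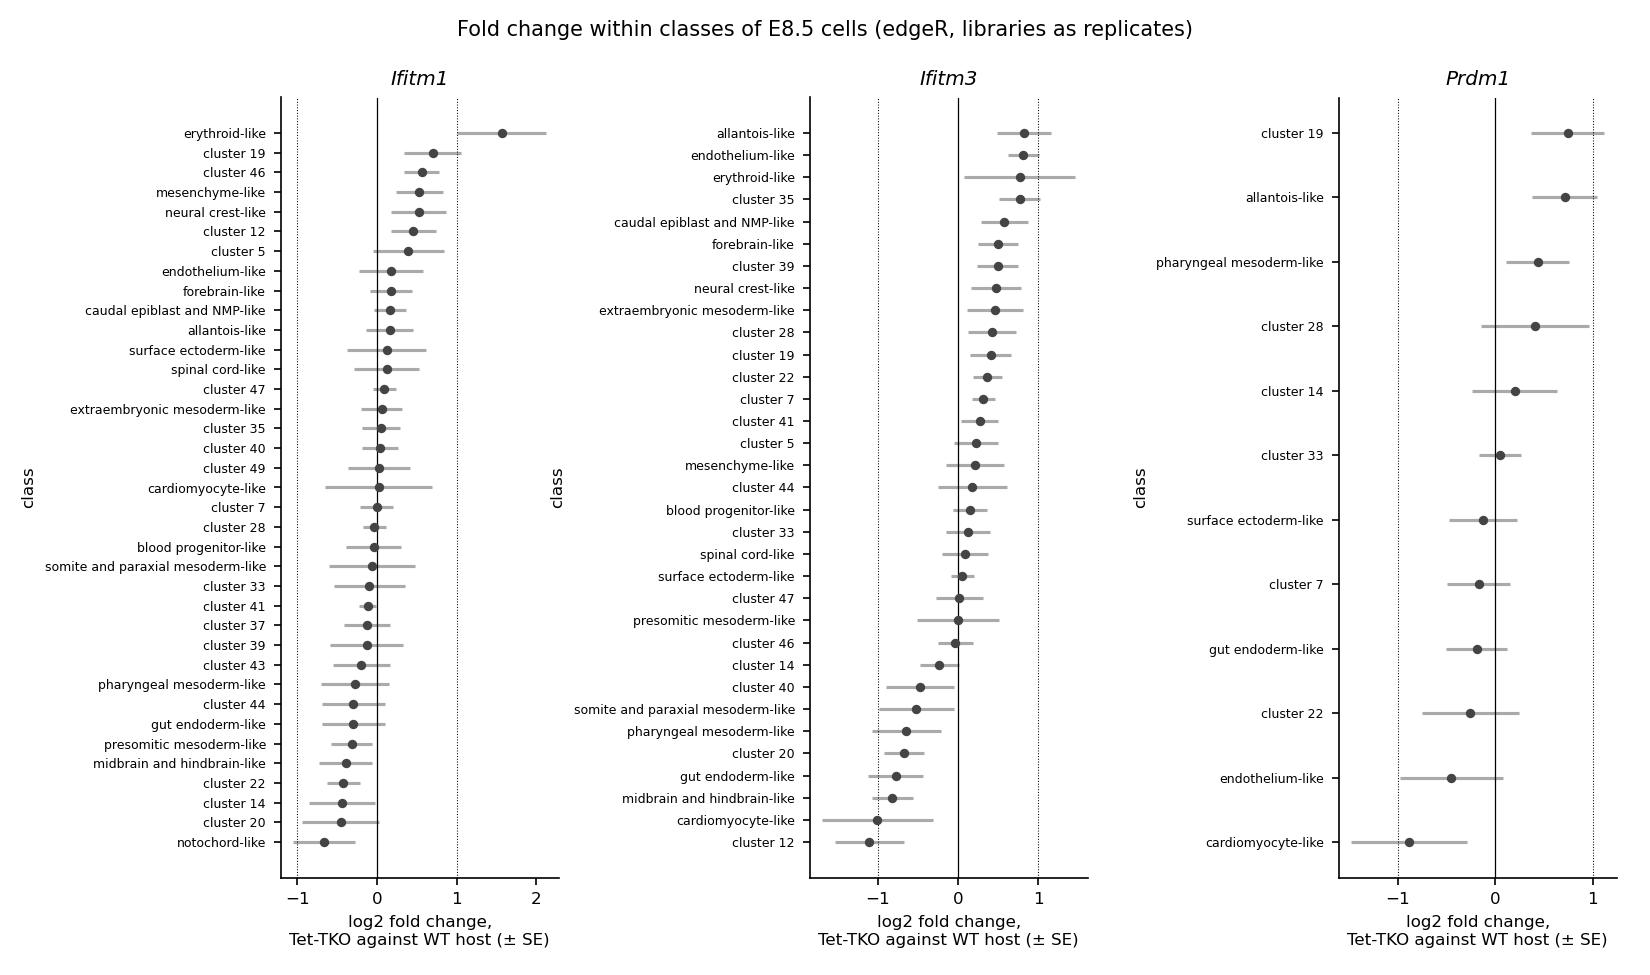
Log2 fold change (Tet-TKO against WT host, with standard error) of Ifitm1, Ifitm3 and Prdm1 in each E8.5 class where the gene was tested by edgeR, with dotted lines at -1 and 1. All 3 genes have values on both sides of 0 (19 higher and 18 lower for Ifitm1, 22 and 11 for Ifitm3, 6 and 6 for Prdm1), and no pair passed the threshold.

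The other genes of germ cell formation were read from 5 lists of 58 genes, of which 53 were tested in whole-library sums and none was called by edgeR. An unadjusted p under 0.05 was seen for 21 of the 53, beside 26.7% of all tested genes. DESeq2 called 6 of them, beside 6.86% of all genes, and 10 were called with libraries 1 and 2 paired by number, beside 8.71% of all genes. The list of specification signals, which holds BMP ligands and receptors, Smad genes, Wnt3, T and Eomes, had a median log2 fold change of 0.36 over 12 genes. Bmp4, the ligand that induces germ cells, was at 81.5 ± 16.7 CPM in Tet-TKO (SD, n = 4) and 40.6 ± 7.52 CPM in WT host libraries (SD, n = 2), a log2 fold change of 0.94 (edgeR adjusted p = 0.0685). Bmpr1a, its receptor, had 0.39 (edgeR adjusted p = 0.0431). Bmp8b, an extraembryonic ectoderm ligand that was chosen after its values were seen, was at 0.0821 against 0.993 CPM (log2 fold change -3.66, edgeR adjusted p = 0.0126).

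The germ cell transcription and pluripotency regulators had a median of -0.07 over 14 tested genes. Lin28a was at 155 CPM in Tet-TKO and 109 CPM in WT host libraries (log2 fold change 0.42, edgeR adjusted p = 0.0527), and Prmt5 at 79.2 and 78.8 CPM (-0.08, edgeR adjusted p = 0.549). For migration and survival the median was 0.01 over 9 genes, with 0.48 for Itgb1 (edgeR adjusted p = 0.0962) and -0.79 for Epcam (edgeR adjusted p = 0.153). For the later germline genes that DNA methylation silences in somatic cells, the median was 0.64 over 14 tested of 18 genes. Ddx4, an RNA helicase of the germ plasm, was at 1.77 against 0.755 CPM (1.15, edgeR adjusted p = 0.0492) and Sycp3, of the synaptonemal complex, at 2.34 against 0.801 CPM (1.52, edgeR adjusted p = 0.195). For the other Ifitm genes the median was 0.28 over 4 tested genes, with 0.51 for Ifitm2 (edgeR adjusted p = 0.322) and -0.03 for Ifitm10 (edgeR adjusted p = 0.928). Ifitm1, Ifitm2 and Ifitm3 are related in sequence, and how the counting treated reads that match more than 1 of them was not tested. The median over all tested genes was 0.02.

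Inside the primordial germ cell-like cluster several pluripotency genes of these lists were present in both groups, but not all of them. Pou5f1 had a mean of 659 CPM in Tet-TKO and 805 CPM in WT host libraries, Tfap2c 187 and 282 CPM, Sox2 248 and 202 CPM and Nanog 34.7 and 75.6 CPM. Kit, the receptor that germ cells use to survive, was at 145 and 62.1 CPM, and Alpl, whose alkaline phosphatase is the classical histochemical label of germ cells, was at 179 and 235 CPM. None was called, and in the WT host cells Nanog rests on 9 and Kit on 10 UMIs. Otx2 had 0 UMIs in both groups, and Tcl1 had 24 in Tet-TKO and 0 in WT host cells. Esrrb and Zfp42 had 1 UMI each in WT host cells. Lin28a was lower inside the cluster (68.9 CPM in Tet-TKO and 72.0 in WT host) than outside it (151 and 109 CPM). Prmt5 was at 71.1 and 68.3 CPM inside and 78.1 and 78.8 CPM outside.

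The genes most like each of the 7 in pattern were ranked over 46 E8.5 classes of WT host cells by Pearson's r of log2(CPM + 1). The ranking covered 12874 genes with at least 10 CPM in at least 1 class. In the 11 WT host cells of the germ cell-like class, 1 UMI can be enough to pass this limit. Ifitm1 was most like Ptk7 (r = 0.81), Lef1 (0.80) and H2afy (0.80). Ifitm3 was most like Ifitm2 (0.73), Frg1 (0.70) and Sspo (0.67), and Prdm1 was most like Usp53 (0.76), Tmtc4 (0.66) and Pvr (0.64). All 7 genes were at their highest in the germ cell-like class, and many of the nearest genes rested on few molecules in its 11 WT host cells, with 3 to 6 UMIs for those of Prdm1 and 1 for Sspo. Dppa3 was most like A230051N06Rik (r = 0.99), Dppa3-ps (0.96) and Gm31659 (0.96), which had 1, 2 and 2 UMIs in those cells. In the germ cell-like class of each E8.5 Tet-TKO library, A230051N06Rik had 0 UMIs. Dnd1 was most like A230051N06Rik (0.88), Gm31659 (0.87) and Dppa3 (0.87). Nanos3 was most like Gm26806 (0.95), Gm11747 (0.95) and Gm43556 (0.95), which had 1, 5 and 1 UMIs there. Prdm14 was most like Psmb8 (0.88), A230051N06Rik (0.81) and Dppa3 (0.78). The points are classes of the same libraries and are not independent. Among the 7 genes, Dppa3 correlated with Nanos3 at 0.91 and with Dnd1 at 0.87 over the classes, and Ifitm1 with Ifitm3 at 0.52. The germ cell-like class was split and named with the help of Dppa3, Dnd1 and Nanos3, so part of their correlation is built in. Of the 36 classes with at least 50 cells of each genotype, 27 held 0 Dppa3 UMIs and 21 held 0 Nanos3 UMIs in WT host cells. Dppa3-ps is a near copy of Dppa3, and counts could be split between them, but it held at most 7 UMIs in any library.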

How the data were processed

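Per the labels, cells of pooled embryos were sorted as DAPI-negative singlets by tdTomato and sequenced with 10x 3′ v3 chemistry. The authors aligned reads to mm10 with a tdTomato sequence and deposited unnormalised UMI counts for each gene in each cell, made with Cell Ranger (3.1.0 in the file headers, while the methods name another version). Barcodes below 1500 UMIs, or with over 30% of UMIs from mitochondrial or over 35% from ribosomal genes, were dropped. No doublet caller was run. Cells of each stage were clustered (scanpy 1.11.5, 2500 variable genes without the 7 members, 50 components, Leiden resolution 2) and named by fixed markers with a lead of 0.5 on the log2 scale. This lead and the splitting of one E8.5 cluster, of which a pair of sub-clusters were named germ cell-like, were set after the clusters were seen. The split cluster was that with the most cells holding UMIs of at least 2 of Dppa3, Dnd1, Nanos3 and Prdm14.

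UMIs were summed per library, or by class within each library (10 cells or more), and tested across all genes with edgeR 4.0.16 in R 4.3.3 (filterByExpr, TMM, quasi-likelihood test). Benjamini-Hochberg adjusted p was taken over all genes tested in the fit. DESeq2 1.42.0, no filter, other depths, other cell choices and leaving out each library were tried. On simulated counts 97% of 200 genes changed by a log2 fold of 2 were called in the whole-library fit of 21075 genes, with 1 false call. In the gut endoderm-like class fit of 12255 genes, 99.5% of 200 such genes were called, with 5 false calls. The changed genes were drawn only from those above the median CPM, so recovery of rarer genes was not tested.

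The 7 genes and the lists were chosen with earlier results of these data known. All 7 genes were named in the whole-library and germ cell-like cluster comparisons, and by class where their counts allowed. From each list, the called genes and those with the highest mean CPM, 2 per list, were named, and for likeness the 3 genes with the highest r. The pluripotency and survival genes named within the germ cell-like cluster were chosen after their values were seen. Promoters were taken from RefSeq (GRCm38.p6), and gene positions are those of the GENCODE mm10 annotation.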

Additional observations from a re-analysis of the deposited data

Results flagged for a closer look

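In the primordial germ cell-like cluster at E8.5, Tet-TKO library 2 stood apart from the other 3 Tet-TKO libraries for Ifitm1, at 2382 CPM against 1760 to 1831 CPM. The gap to its nearest neighbour was 0.886 of the range of the 4 libraries, above Dixon's critical value of 0.829. This was 1 of 20 such groups of 4 that were checked, and chance alone flags about 1 in 20.

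The Dppa3 difference in the clusters named primordial germ cell-like had opposite signs at E7.5 and E8.5. The stages were clustered apart and only the E8.5 cluster came from a split, so unlike sets of cells are compared. Of the Tet-TKO cells of these clusters, 24 of 125 were germ cell-like at E7.5 and 51 of 79 at E8.5. At E7.5 the Dppa3 level was 114 CPM in Tet-TKO cells against 80.1 CPM in the host cells, a log2 difference of 0.51 on log2(CPM + 1). The host value rests on 22 UMIs in 5 cells, and the counting intervals overlapped (101 to 129 against 50.2 to 121 CPM), so no difference is shown at E7.5 alone. At E8.5, by comparison, all 4 Tet-TKO libraries (467 to 834 CPM) lay below both WT host libraries (1204 CPM each). The difference between the stages was not tested.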

How the results depend on the processing

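With edgeR, none of the 7 genes was called in whole-library sums, and 1 (Dppa3) was called with DESeq2 and 1 (Dppa3) without a filter on low counts. Of the list genes, 0 were called, against 6 with DESeq2 and 1 (Bmp8b) without a filter. Of 88 pairs of gene and class, 0 were called, against 4 of 208 without a filter (background 0.994%). With each library left out in turn, the calls changed for Ifitm1 in erythroid-like cells and in cluster 46. The fits behind these changes left 1 library in a group, and the share of all pairs called in them is not given, so they are not read as calls. Where a WT host library was left out, the lone host library is assumed to vary like the others. The log2 fold change of the cell number of the germ cell-like cluster ranged from 2.39 to 3.29 with each library left out. The cause of these changes was not tested.

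The study matched Tet-TKO with host samples, but nothing states that a shared number marks a shared pool. The replicate block over libraries 1 and 2 called 3 of the 7 genes (Dppa3, Ifitm1 and Prdm14; background 8.71%), 10 list genes and 3 pairs of gene and class (of 85, background 2.21%). The deviations of library 1 from the group means correlated at r = 0.33 between genotypes over 20238 genes. With 2 pairs this does not settle whether the numbers pair the libraries.

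With each library left out, the log2 fold change ranged from -0.066 to 0.47 for Dnd1, from -0.15 to 0.38 for Prdm1, from -0.12 to 0.042 for Ifitm10, from -0.12 to 0.26 for Ifitm3 in surface ectoderm-like cells and from -0.67 (without Tet-TKO library 2) to 2.50 for Ifitm1 in erythroid-like cells, which 52 Tet-TKO cells represent. Dnd1 was also at -0.085 among cells whose tdTomato matched the sorted fraction and at -0.74 without germ cell-like cells, and Prdm1 was at -0.030 with the replicate block. Over the single genes named, 265 of 289 alternatives kept direction and side of the threshold, 15 passed it and 9 turned. The germ cell-like share kept separate groups under all alternatives, with a difference in means of 0.0619 to 0.606 percentage points. The smallest came from cells with at least 3 of the 4 genes. Tet-TKO libraries 3 and 4 and both WT host libraries then held 1 such cell each, and their exact intervals overlapped. The test of germ cell-like cells with at least 10 cells per library was not run, nor were its alternatives. Leaving out germ cell-like cells, the test of cell numbers, the germ cell-like cluster fit and the cluster splitting were chosen after seeing the data.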

Other observations

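At E7.5, several of these genes were counted in an unnamed cluster 23 of 114 Tet-TKO and 65 WT host cells, led by Igfbp3, Hoxaas3, Sprr2a3, Tdrd5 and Wnt3a. Of these cells, 7 Tet-TKO and 2 WT host cells were germ cell-like, and a single Tet-TKO cell held up to 11 Dnd1 or 10 Dppa3 UMIs. It was chosen after its values were seen, and with 1 library per genotype there is no test. Dnd1 was at 28.1 CPM in Tet-TKO (21.9 to 35.4) and 5.74 CPM in WT host cells (1.86 to 13.4), and Ifitm3 was at 249 CPM (229.6 to 269) and 86.1 CPM (67.7 to 108). For both genes the counting intervals did not overlap. Dppa3 was at 23.7 CPM (18.1 to 30.5) against 11.5 CPM (5.50 to 21.1), Prdm1 at 9.49 CPM (6.08 to 14.1) against 2.30 CPM (0.278 to 8.29) and Prdm14 at 3.95 CPM (1.90 to 7.27) against 3.44 CPM (0.710 to 10.1), with overlapping intervals. Ifitm1 was at 752 CPM against 489 CPM, and Nanos3 at 5.93 CPM (15 UMIs) against 1.15 CPM (1 UMI).

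The classes given next were also chosen after their values were seen, from 32 classes at E7.5 with 1 library per genotype. In cluster 1, led by the anterior neural genes Six3, Lhx5 and Hesx1, Dppa3 and Dnd1 had differences of opposite sign. Dppa3 was at 8.95 CPM in 221 Tet-TKO cells (48 UMIs in 27 cells) and 0.955 CPM in 744 WT host cells (10 UMIs in 9 cells). Dnd1 was at 2.05 CPM in Tet-TKO (11 UMIs, 1.02 to 3.67) and 8.31 CPM in WT host cells (87 UMIs, 6.65 to 10.2). At E7.5 Prdm1 was at 7.33 CPM in WT host pharyngeal mesoderm-like cells (24 UMIs, 4.70 to 10.9) and 0.985 CPM in Tet-TKO cells of that class (2 UMIs, 0.119 to 3.56), whereas at E8.5 the Tet-TKO and WT host ranges of this class overlapped.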
